A study of Danio rerio with 20 samples.

Results

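The comparison of ion-exposed with untreated zebrafish larvae (Danio rerio) took in 10 of the 20 RNA sequencing libraries of the study, namely all 5 with the treatment label Ion and all 5 labelled untreated. The treatment label alone chose them. Each library was made from a pool of 20 whole larvae of the WT strain, wild type in genotype, at 10 days post fertilization, and larvae of all groups were fed a powdered larval diet. The Ion larvae had been kept with dissolved ions for 48 hours; which ions, and at what concentration, is not given in the sources used here. The remaining 10 libraries, 5 of larvae kept with lithium cobalt oxide (LCO) nanosheets at 10 mg/L and 5 at 1 mg/L for the same 48 hours, entered the model as a source of information on the spread between pools and are set beside the ion values below. Untreated larvae carry the same 48 hour label. Per the design text, 6 pools were collected and libraries were chosen on RNA quality; the Ion libraries are numbered 1, 2, 3, 4 and 6 and the untreated ones 1 to 5.

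LCO is a layered oxide used as the cathode of lithium-ion batteries, and it can release lithium and cobalt ions into water, which is why a dissolved ion exposure is commonly run beside such particles. As background, cobalt ions block the oxygen-sensing prolyl hydroxylases and so stabilise the hypoxia-inducible factors, lithium ions inhibit the kinase GSK3 that restrains Wnt signalling, and fish larvae take up dissolved metals through the gills, the skin and the gut. The files name transcripts by Ensembl identifier, and none of the 57775 identifiers could be paired with a gene here (0 matches). Hypoxia, Wnt, metal-binding or tissue marker genes could therefore not be read from these data, the label whole larvae could not be checked against markers, and transcripts other than 4 named ones are described by their length. A difference in 1 transcript can come from its gene or from a shift between transcripts of that gene, and in pools of whole larvae fewer cells of a type and less RNA per cell cannot be told apart.

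Sequencing depth overlapped between the groups, at 35012700 to 49469200 estimated counts per Ion library and 32568900 to 63120000 per untreated library. After thinning to a common 32568774 counts, 43962 to 44736 transcripts were detected in Ion libraries and 43746 to 44914 in untreated ones (exact two-sided permutation p = 0.722). The 100 most abundant transcripts held 26.1% to 27.6% of the counts in Ion libraries and 26.3% to 27.7% in untreated libraries (exact permutation p = 0.357). The gap between transcript length and effective length, which follows the fragment lengths of a library, was 158 ± 6.06 bases in Ion and 152 ± 5.98 bases in untreated libraries (SD, n = 5 each; exact permutation p = 0.167). After adjustment over these and the total count, 4 measures in all, the lowest exact permutation p was 0.667.

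The Ion libraries did not form 1 cluster. On the first principal component of log2 CPM (the count of a transcript scaled to the same library total) over the 10 libraries, which held 18.8% of the variance, Ion replicates 4 and 6 had scores of -81.1 and -121. The other Ion libraries lay at -4.26 to 34.2 and all 5 untreated libraries at 13.4 to 39.3. On the second component, with 12.6%, Ion replicates 1, 2 and 3 had scores of -44.8, -65.7 and -32.1 while the untreated libraries lay at -7.94 to 103, the highest of them being replicate 4. The untreated libraries were not compact on every component either, since the third, with 12.1%, set untreated replicate 2 alone at 117 while the other 9 libraries lay at -49.4 to 17.7. The nanosheet groups divided in a like way. On the first component over all 20 libraries, Ion replicates 4 and 6 and 6 nanosheet libraries, replicates 2, 3, 4 and 6 at LCO 10 mg/L and 1 and 2 at LCO 1 mg/L, lay at 20.9 to 90.4, and the other 12 libraries, all untreated ones included, at -60.2 to -20.8. The labels give no batch to which these separations could be matched, and the cause was not tested.

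**Figure D1:**
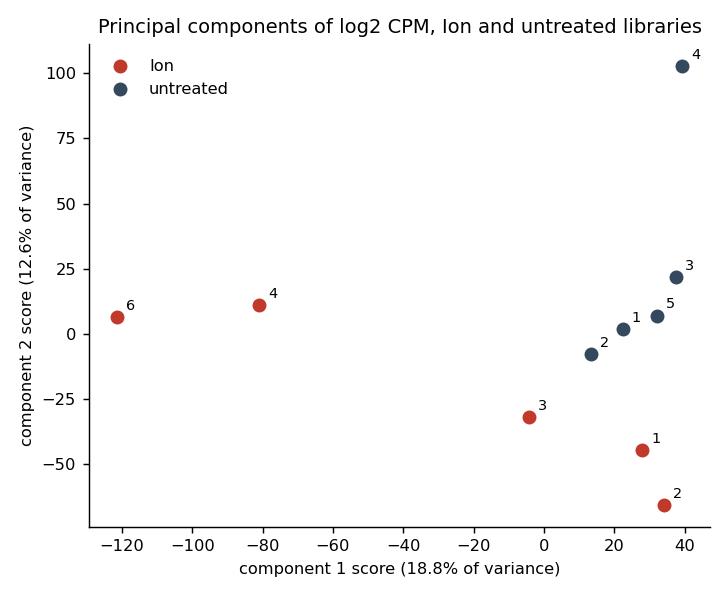
Scores on the first 2 principal components of log2 CPM for the 5 Ion (red) and 5 untreated (dark) libraries, with replicate numbers. Ion replicates 4 and 6 stand apart on the horizontal axis at -81.1 and -121, and Ion replicates 1, 2 and 3 lie lowest on the vertical axis.

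The same division showed in the distance of each library from the untreated pools, taken as the median absolute log2 difference from the mean of 4 untreated libraries over the 24948 transcripts whose log2 CPM averaged 1 or more. For an Ion library this was averaged over the 5 choices of 4. Ion replicates 1, 2 and 3 were 0.125, 0.136 and 0.143 away, and Ion replicates 4 and 6 were 0.192 and 0.219 away. Each untreated library was 0.0938 to 0.138 away from the mean of the other 4. By this measure Ion replicates 1 and 2 lay within the range of the untreated libraries, in its upper part, and Ion replicate 3 lay slightly above it. In Ion replicates 1, 2 and 3 between 431 and 467 transcripts were over 2-fold away from that mean, in Ion replicates 4 and 6 637 and 829, and in untreated libraries between 292 and 436. Pairs of Ion libraries differed by a median of 0.193, an Ion and an untreated library by 0.195, and 2 untreated libraries by 0.153 (medians over 10, 25 and 10 pairs). Across all 39355 tested transcripts the median SD of log2 CPM was 0.238 among Ion and 0.217 among untreated libraries, and it was larger among Ion libraries for 55.8% of transcripts.

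The main question was which transcripts were more or less abundant after exposure to ions. By edgeR's quasi-likelihood test at a Benjamini-Hochberg adjusted p under 0.05, 14 of 39355 transcripts were called, or 0.0356%. Of these, 3 were higher in Ion larvae (0.00762% of those tested) and 11 were lower (0.028%). The rises were the larger changes, at 2.47-fold to 8.33-fold, and the falls ranged from 1.30-fold to 2.15-fold lower. In each of the 14 the 5 Ion libraries lay wholly on one side of the 5 untreated ones. This was the case for 3.09% of all tested transcripts, 490 (1.25%) with Ion above and 726 (1.84%) with Ion below. The 14 were called on these same libraries, so their separation is not further evidence for the calls. All 14 were also called by DESeq2, which called 427 (77 higher, 350 lower), and 13 of the 14 by limma-voom, which called 29 (2 higher, 27 lower). The edgeR count was 0 when the model held only the 10 Ion and untreated libraries, where 5197 had an unadjusted p under 0.05 and where DESeq2 and limma-voom called 1174 and 2. In that fit the edgeR adjusted p of the 4 named transcripts lay between 0.0502 and 0.0566. The count was also 0 without Ion replicate 3, where 3766 had an unadjusted p under 0.05, and it was 3 and 5 without Ion replicates 2 and 6 and 6, 6, 4 and 2 without untreated replicates 2, 3, 4 and 5.

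**Figure D2:**
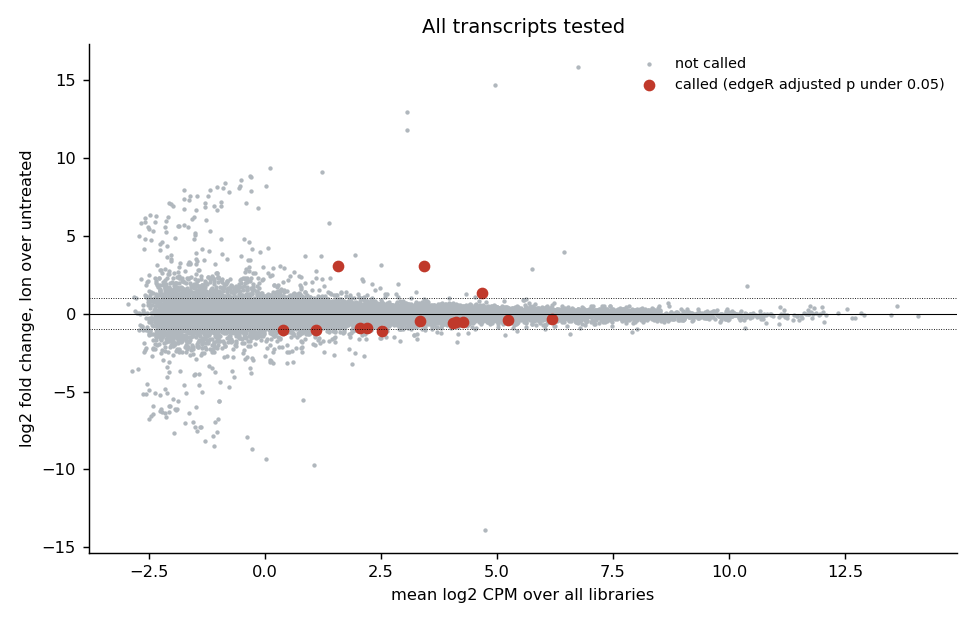
Log2 fold change of Ion over untreated larvae against mean log2 CPM for the 39355 tested transcripts, with the 14 called ones in red and dotted lines at 2-fold. The 3 called rises lie above the upper dotted line and most called falls lie between the dotted lines, while many transcripts of low abundance lie far outside them without a call.

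The largest called rises were in 2 short transcripts, ENSDART00000110490.4 of 534 bases and ENSDART00000109791.4 of 279 bases. ENSDART00000110490.4 was at 10.0, 35.0, 15.9, 9.15 and 31.5 CPM in Ion replicates 1, 2, 3, 4 and 6, against 2.67, 2.13, 2.41, 3.74 and 1.32 CPM in untreated replicates 1 to 5. Every Ion library was above every untreated one, and the Ion libraries themselves spread widely, with replicates 2 and 6 highest and replicates 1 and 4 lowest. Its mean was 20.3 ± 12.2 CPM in Ion and 2.45 ± 0.880 CPM in untreated larvae (SD, n = 5 each), a log2 fold change of 3.06 ± 0.43 (SE; edgeR adjusted p = 0.0142), from 361 to 1370 counts per Ion library and 68 to 143 per untreated library. ENSDART00000109791.4 was at 2.50, 10.7, 4.67, 2.34 and 8.56 CPM in Ion replicates 1, 2, 3, 4 and 6, against 0.769, 0.502, 0.716, 0.864 and 0.580 CPM in untreated replicates 1 to 5. The Ion libraries stood in the same order here as for the longer transcript. The log2 fold change was 3.06 ± 0.47 (SE; edgeR adjusted p = 0.0184), from 90 to 418 counts per Ion library and 16 to 36 per untreated library.

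The abundance of ENSDART00000110490.4 was 3.28 to 4.01 times that of ENSDART00000109791.4 in Ion libraries and 2.28 to 4.33 times in untreated libraries, on the CPM scale. The ratios in Ion libraries lay within the range of those in untreated libraries. Whether the 2 rises are separate changes was not tested. The authors' deposited TPM (an abundance that accounts for transcript length) averaged 65.2 ± 39.0 in Ion and 7.24 ± 2.49 in untreated larvae for ENSDART00000110490.4, and 53.02 ± 33.8 in Ion and 5.88 ± 1.11 in untreated larvae for ENSDART00000109791.4 (SD, n = 5 each).

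A further rise, in a transcript of 879 bases, was smaller and followed the same order of Ion libraries. It was at 27.6, 53.3, 34.3, 23.3 and 47.1 CPM in Ion replicates 1, 2, 3, 4 and 6, against 16.1, 17.6, 13.5, 17.2 and 11.0 CPM in untreated replicates 1 to 5. Again replicates 2 and 6 were highest and 1 and 4 lowest, and the groups did not overlap. The log2 fold change was 1.30 ± 0.22 (SE; edgeR adjusted p = 0.0416).

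Inside the Ion group, replicates 4 and 1, with the lowest levels of all 3 transcripts, had the widest length gaps, 168 and 159 bases. The other 3 had gaps of 154 to 156 bases that did not follow the levels. Among them replicate 3 had the lowest levels and replicate 6 the widest gap. A relation between gap and level inside the Ion group was not tested. With the gap as a covariate over all libraries, the log2 fold changes were 3.43, 3.50 and 1.48 for the transcripts of 534, 279 and 879 bases. Without it they were 3.06, 3.06 and 1.30. With the covariate all 3 were called by edgeR (adjusted p = 0.00258, 0.00258 and 0.0268). The call of ENSDART00000110490.4 was lost without Ion replicate 3 or untreated replicate 5 (edgeR adjusted p = 0.0535 and 0.0503). That of ENSDART00000109791.4 was lost without Ion replicate 2, 3 or 6 or untreated replicate 2, 3, 4 or 5 (edgeR adjusted p up to 0.0842) and with limma-voom (adjusted p = 0.0882). That of the transcript of 879 bases was lost without Ion replicate 2, 3 or 6 or any single untreated replicate (edgeR adjusted p up to 0.148).

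**Figure D3:**
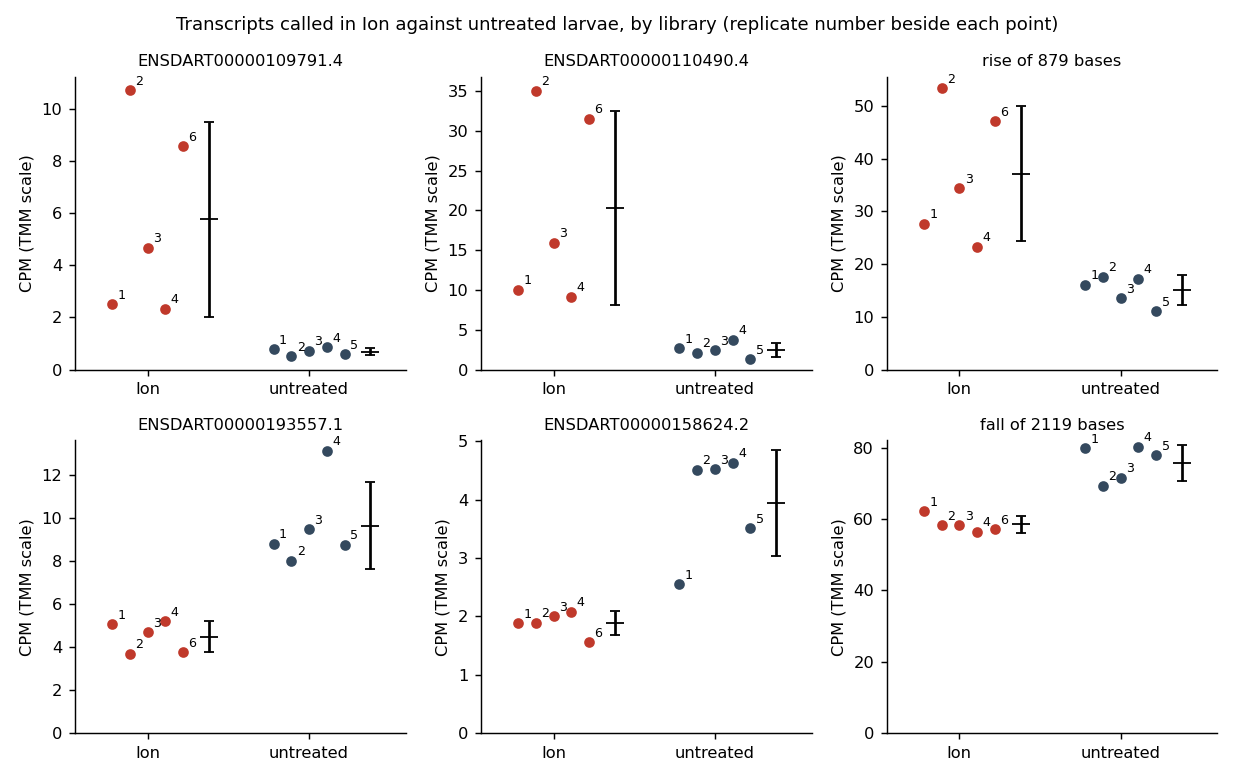
CPM of the 3 called rises (top row) and of 3 called falls (bottom row) in each Ion (red, left) and untreated (dark, right) library, with replicate numbers and, beside each group, the mean ± SD of its 5 libraries. In the top row Ion replicates 2 and 6 are highest and all Ion libraries are above the untreated ones, and in the bottom row all Ion libraries are below them.

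Among the 11 falls the largest was in ENSDART00000193557.1, a transcript of 1302 bases. It was at 5.05, 3.68, 4.67, 5.19 and 3.76 CPM in Ion replicates 1, 2, 3, 4 and 6, against 8.79, 8.0, 9.47, 13.1 and 8.76 CPM in untreated replicates 1 to 5. The highest Ion library was below the lowest untreated one, and untreated replicate 4 was well above the other untreated libraries. The means were 4.47 ± 0.71 CPM in Ion and 9.63 ± 2.02 CPM in untreated larvae (SD, n = 5 each), a log2 fold change of -1.10 ± 0.16 (SE; edgeR adjusted p = 0.0142) that was -0.97 without untreated replicate 4. Its call was lost without Ion replicate 2 or 3 (edgeR adjusted p = 0.0538 and 0.0535).

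ENSDART00000158624.2, of 406 bases, was at 1.89, 1.89, 2.00, 2.08 and 1.55 CPM in Ion replicates 1, 2, 3, 4 and 6, against 2.55, 4.52, 4.52, 4.63 and 3.52 CPM in untreated replicates 1 to 5. Here the Ion libraries were close together, at an SD of 0.200 CPM, and untreated replicate 1 came nearest to them. The log2 fold change was -1.06 ± 0.16 (SE; edgeR adjusted p = 0.0184), from 57 to 104 counts per Ion library and 106 to 227 per untreated library. Its call was lost without any of 7 single libraries, Ion replicates 2, 3 and 6 and untreated replicates 2 to 5, at edgeR adjusted p up to 0.0818.

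The other 9 falls had log2 fold changes from -1.04 to -0.37, and the 11 had a median of -0.62. The median over all tested transcripts was -0.004, and the 11 lie below it because they were picked as falls. The most abundant of the 11, of 2119 bases, was also the smallest fall. It was at 62.3, 58.3, 58.4, 56.5 and 57.2 CPM in Ion replicates 1, 2, 3, 4 and 6, against 79.9, 69.4, 71.6, 80.3 and 78.0 CPM in untreated replicates 1 to 5. Both groups were tight and did not overlap, with a log2 fold change of -0.37 ± 0.05 (SE; edgeR adjusted p = 0.0142) on 2098 to 2827 counts per Ion library and 2213 to 4839 per untreated library. Its call was lost without Ion replicates 2, 3 or 6 or untreated replicates 4 or 5, at edgeR adjusted p up to 0.0761, while the fold change stayed between -0.40 and -0.35 over all 10 omissions.

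Among the longer falls, a transcript of 5619 bases averaged 17.4 ± 2.07 CPM in Ion and 26.7 ± 1.84 CPM in untreated larvae (SD, n = 5 each; edgeR adjusted p = 0.0339). One of 4738 bases averaged 17.1 ± 1.48 CPM in Ion and 24.3 ± 1.61 CPM in untreated larvae (edgeR adjusted p = 0.0142). A fall of 3372 bases averaged 18.3 ± 1.38 CPM in Ion and 26.1 ± 2.06 CPM in untreated larvae (edgeR adjusted p = 0.0184). These changes were each under 1.6-fold. In the untreated group 1 library stood above the rest for 2 of them, replicate 3 at 27.2 CPM for the transcript of 4738 bases and replicate 4 at 29.8 CPM for that of 3372 bases. A steeper fall was that of a transcript of 753 bases, at 3.13 ± 0.261 CPM in Ion and 6.04 ± 1.2 CPM in untreated larvae (edgeR adjusted p = 0.0339). With the length gap as a covariate only 4 transcripts were called by edgeR, the 3 rises and 1 fall, and the 2 named falls had log2 fold changes of -1.08 and -1.01 (adjusted p = 0.0695 and 0.0961). Among the next 14 transcripts, at edgeR adjusted p from 0.0522 to 0.0994, 13 were lower in Ion larvae and 1 was higher. The higher one, of 279 bases like ENSDART00000109791.4, had a log2 fold change of 4.19 ± 0.80 (SE; edgeR adjusted p = 0.0817). This was larger than that of any called rise, at a mean log2 CPM of 0.07. Whether these transcripts are related was not tested.

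Most of the transcriptome showed no large difference that these pools could resolve. For 29546 of 39355 transcripts, or 75.1%, the 95% interval of the log2 fold change lay within 2-fold in either direction, and for 52.6% it lay within 1.5-fold. The share followed abundance. When the transcripts were cut into 3 equal classes, 97.8% of the most abundant, 88.0% of the middle and 39.4% of the least abundant class were bounded within 2-fold. The median SE of the log2 fold change was 0.092, 0.163 and 0.404 in the same order. In the least abundant class 1 transcript was called, against 5 and 8 in the middle and upper classes. An unadjusted p under 0.05 was reached by 3945 transcripts, 10.0% of those tested, of which 1794 were higher and 2151 lower in Ion larvae. A share of about 0.05 would be expected where nothing differs. The share was 14.6% in the most abundant, 10.3% in the middle and 5.16% in the least abundant class. The count of calls is thus not a measure of how many transcripts differ. What lay behind these shares was not tested.

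Fold changes past 2-fold were seen in 698 transcripts that were higher and 691 that were lower in Ion larvae, and 3 were called in each direction. The Ion and untreated libraries did not overlap in 41 of the 698 (5.87%) and 64 of the 691 (9.26%). Over all tested transcripts, whichever way they moved, Ion lay wholly above untreated in 1.25% and wholly below in 1.84%. The 698 and 691 were chosen by the size and direction of change in these same libraries, which makes such a separation likelier. Among the 698, the highest Ion library held a median of 41.7% of the summed CPM of the group, where equal libraries would hold 20% each, and in 236 it held over 50%. Among the 691, the highest untreated library held a median of 37.7% of the untreated sum, and over 50% in 178. The highest of 5 unequal libraries always holds over 20%, and the share over all tested transcripts was not taken. Of the 1389 transcripts past 2-fold, 1210 were in the least abundant class. Where log2 CPM averaged 1 or more, 63 were higher and 75 lower. The groups did not overlap in 15.9% and 28% of these, and the median shares were 37.5% and 31.2%. How often the groups did not overlap over all transcripts of that abundance was not counted. The 1.25% and 1.84% above also cover rarer transcripts. Complete loss or gain was rare. Over all 57775 transcripts, 13 were at 0 in all 5 Ion libraries and counted in all 5 untreated ones, with a median of 20 counts summed over the untreated group, and 3 showed the opposite pattern. Of these, 2 and 1 passed the filter on low counts, and their lowest edgeR adjusted p were 0.250 and 0.195.

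The 14 transcripts can be set beside their values under nanosheets, which were compared with the same 5 untreated libraries, so that the fold changes over untreated larvae are not independent of each other. The edgeR model called 6.28% of transcripts at LCO 10 mg/L and 12.7% at LCO 1 mg/L against untreated larvae. Of the 14, all but the fall of 2119 bases were also called at LCO 10 mg/L (edgeR adjusted p up to 0.0232). At LCO 1 mg/L all but that fall and the rise of 879 bases were called (edgeR adjusted p up to 0.0386). ENSDART00000110490.4 averaged 20.3 ± 12.2 CPM under Ion, 13.0 ± 6.29 at LCO 10 mg/L, 7.03 ± 2.20 at LCO 1 mg/L and 2.45 ± 0.880 in untreated larvae (SD, n = 5 each). ENSDART00000109791.4 averaged 5.75 ± 3.73 CPM under Ion, 3.32 ± 2.06 at LCO 10 mg/L, 1.93 ± 0.703 at LCO 1 mg/L and 0.686 ± 0.145 in untreated larvae. Both thus had their highest mean under Ion. Their highest library at LCO 10 mg/L, replicate 1, was at 20.6 and 6.46 CPM, and the Ion and LCO 10 mg/L libraries overlapped.

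Tested directly, Ion and LCO 10 mg/L differed in 1 of the 14 transcripts by edgeR, where 0.17% of all transcripts were called, and Ion and LCO 1 mg/L differed in 8 of the 14, where 6.05% of all were called. The 14 were chosen on the same Ion libraries that enter these tests. The transcript that differed from both doses was the fall of 2119 bases. It averaged 58.5 ± 2.26 CPM under Ion, 80.0 ± 3.68 at LCO 10 mg/L, 77.0 ± 4.58 at LCO 1 mg/L and 75.9 ± 5.02 in untreated larvae (SD, n = 5 each). All 5 Ion libraries, at 56.5 to 62.3 CPM, were below the lowest of the other 15, which was at 69.4 CPM. This transcript was singled out by these same values, and how many of all transcripts show such a separation was not counted. The log2 fold change of Ion over LCO 10 mg/L was -0.45 ± 0.05 and that of Ion over LCO 1 mg/L was -0.40 ± 0.05 (SE; edgeR adjusted p = 0.00132 and 0.000308).

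ENSDART00000110490.4 was 1.53 log2 units higher under Ion than at LCO 1 mg/L (edgeR adjusted p = 0.0260) and 0.65 ± 0.39 higher than at LCO 10 mg/L (SE; adjusted p = 0.587). ENSDART00000158624.2 was also higher under Ion than at LCO 1 mg/L, by 0.57 log2 units (edgeR adjusted p = 0.0446), and averaged 1.88 ± 0.200 CPM under Ion, 1.2 ± 0.142 CPM at LCO 10 mg/L and 1.27 ± 0.232 CPM at LCO 1 mg/L (SD, n = 5 each). Its difference from LCO 10 mg/L was 0.65 ± 0.17 log2 units and did not pass (SE; edgeR adjusted p = 0.123). ENSDART00000193557.1 was at 4.47 ± 0.71 CPM under Ion, 4.82 ± 0.871 at LCO 10 mg/L and 3.86 ± 0.662 at LCO 1 mg/L, and neither direct difference passed (edgeR adjusted p = 0.891 and 0.534). The fall of 5619 bases averaged 17.4 ± 2.07 CPM under Ion and 8.74 ± 1.37 CPM at LCO 1 mg/L, 0.99 ± 0.11 log2 units higher under Ion (SE; edgeR adjusted p = 9.46e-05). Across the 11 falls the log2 fold changes over untreated larvae ranged from -1.10 to -0.37 under Ion, from -1.71 to 0.08 at LCO 10 mg/L and from -1.64 to 0.02 at LCO 1 mg/L.

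**Figure D4:**
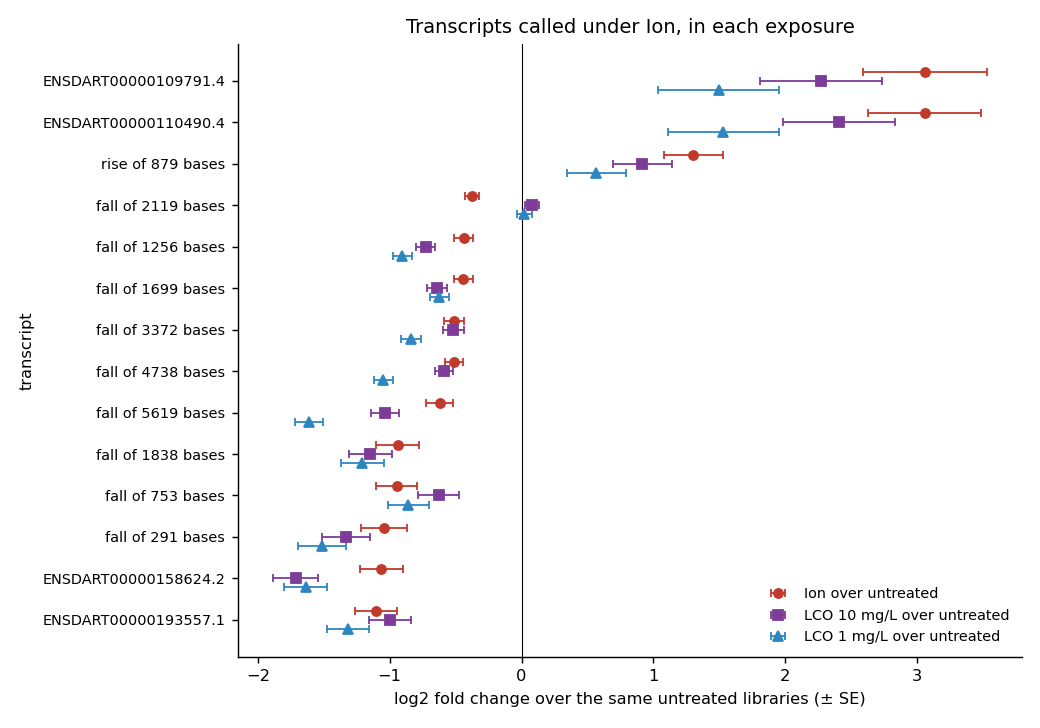
Log2 fold changes ± SE over the same 5 untreated libraries of the 14 transcripts called under Ion, for Ion (red circles), LCO 10 mg/L (purple squares) and LCO 1 mg/L (blue triangles). The 3 rises, which were chosen on the Ion libraries, are largest under Ion and smallest at LCO 1 mg/L. None of the 3 differed from LCO 10 mg/L in the direct edgeR contrast. The fall of 2119 bases is the one whose nanosheet values lie next to 0.

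Both the size of the named changes and their calls shifted when libraries were left out. How far each shifted cannot be compared, since a call is a threshold on an adjusted p. Over all 10 omissions of 1 library, the log2 fold change lay between 2.77 and 3.26 for ENSDART00000110490.4 and between 2.71 and 3.26 for ENSDART00000109791.4. It lay between -1.16 and -0.97 for ENSDART00000193557.1 and between -1.19 and -1.002 for ENSDART00000158624.2. Without Ion replicates 4 and 6, which stood apart on the first component, edgeR called 9 transcripts, 2 higher and 7 lower, of which 5 were among the 14. The log2 fold changes were then 3.06 and 3.11 for the named rises, which were called (edgeR adjusted p = 0.0363 and 0.0398). They were -1.10 and -1.03 for the named falls, which were not (adjusted p = 0.0581 and 0.102). A further fit also left out the nanosheet libraries that lay apart. It kept Ion replicates 1, 2 and 3, replicate 1 at LCO 10 mg/L and replicates 3, 5 and 6 at LCO 1 mg/L, and tested 43144 transcripts. How many calls the smaller number of libraries alone costs was not tested. Without all 8 exposed libraries that lay apart over the 20, edgeR called 3 transcripts, 1 of them among the 14. The named rises then kept log2 fold changes of 3.06 and 3.11 but lost their calls (edgeR adjusted p = 0.0590 and 0.0584), and the named falls were at -1.11 and -1.03 (adjusted p = 0.0836 and 0.139).

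**Figure D5:**
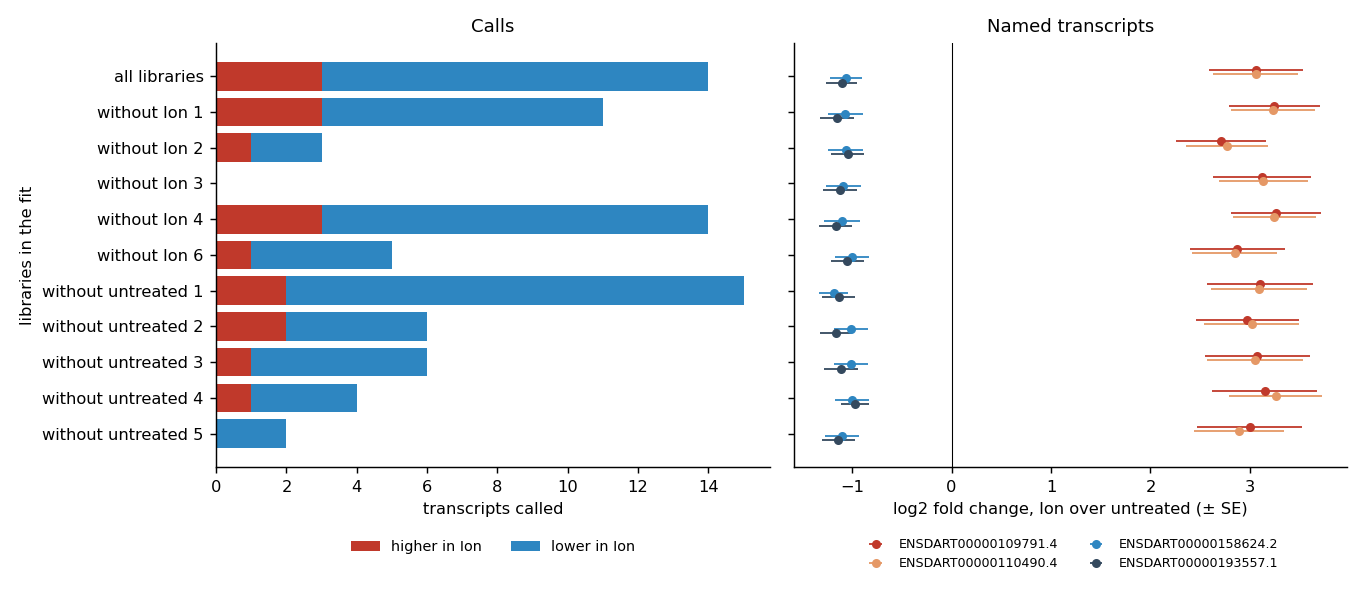
Left, number of transcripts called by edgeR as higher (red) or lower (blue) in Ion larvae with all libraries and without each single Ion or untreated library; right, log2 fold change ± SE of the 4 named transcripts in the same fits. Calls range from 0 without Ion replicate 3 to 15 without untreated replicate 1. Each named transcript keeps its sign, which groups that do not overlap make certain.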

How the data were processed

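Per the file headers, the authors deposited for each library an estimated count and a TPM value for each of the same 57775 transcripts, beside its length and effective length. FastQC 0.11.5, cutadapt 1.18, kallisto 0.45.0 and build GRCz11 are named in the submitters' processing notes; settings and strand are not given in the sources used here. The deposited estimated counts (expected counts, not whole in 61.1% to 65.0% of values in the 10 libraries) were rounded; deposited TPM was used only to describe levels per length. In R 4.3.3 with edgeR 4.0.16, filterByExpr (minimum count 10) left 39355 transcripts and at least 99.86% of counts per library. Libraries were scaled by TMM, 1 model held all 20 libraries by group, and glmQLFTest was two-sided. The SE is the log2 fold change over the square root of F. CPM values are on the TMM scale. DESeq2 1.42.0 and limma 3.58.1 (voom) were alternatives; DESeq2 gave no adjusted p for 8408 transcripts.

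The 2 largest rises and 2 largest falls were named, out of those called whose log2 CPM averaged 1 or more, a rule for identifiers without gene names; the transcripts of 879 and 2119 bases were singled out after their values were seen. The groups compared, the gene lists (which could not be applied) and the tests were chosen with earlier results of these data known. Whether pools shared parents or tanks is not stated, so a p-value reflects only how far these pools differed, which may be technical. Counts of every pair of replicates differed far beyond sampling noise (chi-square over its degrees of freedom 11.7 or more in 20 pairs). Among the tested transcripts, 398 shared their rounded counts with another.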

Additional observations from a re-analysis of the deposited data

Results flagged for a closer look

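Single libraries stood apart from the other 4 of their group for 4 of the 14 called transcripts. Untreated replicate 4 was at 13.1 CPM for ENSDART00000193557.1, where the next highest untreated library was at 9.47 CPM. Untreated replicate 4 was at 29.8 CPM for the fall of 3372 bases (next 25.5 CPM), and untreated replicate 3 at 27.2 CPM for the fall of 4738 bases (next 24.01 CPM). Ion replicate 2 was at 0.716 CPM for the fall of 291 bases, below the next lowest Ion library at 1.14 CPM. These came from 38 sets of 5 values, the Ion and untreated levels of the 14 transcripts and the library measures, and chance flags about 1 set in 20.

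The change under Ion differed from that under LCO 1 mg/L for 8 of the 14 transcripts in the direct edgeR contrast. That contrast called 6.05% of all transcripts, and the 14 were chosen on the same Ion libraries that enter it. The log2 difference, Ion over LCO 1 mg/L, was 1.56 for ENSDART00000109791.4, 1.53 for ENSDART00000110490.4 and 0.57 for ENSDART00000158624.2, with edgeR adjusted p of 0.0374, 0.0260 and 0.0446. For ENSDART00000158624.2 the difference from LCO 10 mg/L was 0.65 and did not pass (edgeR adjusted p = 0.123). Among the other falls it was 0.99 at 5619 bases, 0.53 at 4738 bases, 0.33 at 3372 bases and 0.46 at 1256 bases, so that these fell less under Ion (edgeR adjusted p = 9.46e-05, 0.000208, 0.0148 and 0.000611). For the transcript of 2119 bases the log2 difference was -0.45 against LCO 10 mg/L and -0.40 against LCO 1 mg/L (edgeR adjusted p = 0.00132 and 0.000308).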

How the results depend on the processing

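The count of 14 calls was 17, 12 and 14 with DESeq2's size factors in edgeR, without the filter on low counts and with transcripts of the same counts taken once. It became 427 with DESeq2, 29 with limma-voom, 0 with only the 10 libraries in edgeR, 4 with the length gap as a covariate, 9 without Ion replicates 4 and 6 and 3 without all 8 exposed libraries that lay apart on the first component over the 20 libraries. In settings chosen after seeing the data, DESeq2 and limma-voom on the 10 libraries alone called 1174 (503 higher, 671 lower) and 2. Omitting single libraries gave 0 to 15 calls; those fits tested more transcripts because the filter follows the smallest group. Directly against LCO 10 mg/L, edgeR called 1 of the 14, where it called 0.17% of all transcripts, and DESeq2 called 4. Omitting single Ion libraries gave 1 to 1. Against LCO 1 mg/L, edgeR called 8 of the 14, where it called 6.05% of all. There, omitting single Ion libraries gave 6 to 8. For DESeq2 and for these omissions the share over all transcripts was not taken. Those counts therefore cannot be read as particular to the 14. No named transcript changed sign in any setting. For fits that only omit libraries this was bound to be so, since the Ion and untreated libraries did not overlap in these transcripts.

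With the replicate number as a block, 6 transcripts were called (0 higher, 6 lower), of which 4 were among the 14. In that fit 4 of the 14 differed from LCO 1 mg/L, and the share of all transcripts that did was not taken. Libraries of the same number did not deviate together (r from -0.11 to 0.01 over 4 pairs), and none matched its own number best (0 of 4). With so few pairs, the count of best matches cannot decide whether the numbers pair the pools.

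Library measures passed no threshold in any setting. Omitting single libraries gave differences, Ion minus untreated, of -7354120 to 283665 in total counts, -237 to 54.9 in transcripts detected, -0.630 to -0.276 percentage points in the share of the top 100 transcripts and 3.50 to 7.53 bases in the gap. With the top 20 transcripts in place of 100 the share differed by 0.301 percentage points, the opposite sign. The causes of these shifts were not tested. Sums per gene could not be run, since transcripts were not paired with genes. The SE was largest in the least abundant class of transcripts, with a median of 0.404 on the log2 scale, and how much of it depth sets was not tested.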
